A study of Mus musculus with 4 samples.

Results

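The colony-stimulating factor genes of myeloid cells were followed through single-cell transcriptomes of mouse ovary. The 8 genes were the ligands Csf1 and Il34, the receptor genes Csf1r, Csf2ra, Csf2rb, Csf3r and Flt3, and the transcription factor gene Maf. They were taken by symbol from the deposited matrices, where all 8 were found among 31053 genes. The cells were sorted as CD45+CD11b+ from ovaries of virgin C57BL/6J (WT) females labelled 3 months or 15 months, with no other allele or agent in either group. Per the labels' protocol, the young animals were 2 to 3 months old at harvest (6 mice, 2 to a pool) and the old animals 14 to 17 months (5 mice, so 1 pool came from a single mouse, which is not said). The series description instead gives 2 mice for every pool. A hashtag antibody marked the cells of each pool. All 3 pools of an age then went through a single sort into a single Chromium 3' library, so that age and library cannot be told apart.

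As background, CSF1 and IL-34 are separate ligands of one receptor tyrosine kinase, CSF1R, on which most tissue macrophages depend for survival. GM-CSF binds the alpha chain CSF2RA and signals through the common beta chain CSF2RB, which IL-3 and IL-5 also use. G-CSF acts through CSF3R on neutrophils and their precursors, FLT3 with its ligand supports dendritic cells, and MAF is a transcription factor of resident macrophages that also restrains their self-renewal. In the ovary, macrophages take part in follicle growth, ovulation and removal of the corpus luteum.

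In GRCm38, Csf1 spans chr3:107741048-107760469 on the minus strand, Il34 chr8:110741829-110805924 (minus), Csf1r chr18:61100598-61132149 (plus), Csf2ra chr19:61223957-61228429 (minus) and Csf2rb chr15:78325752-78353847 (plus). Csf3r spans chr4:126024550-126044440 (plus), Flt3 chr5:147330741-147400489 (minus) and Maf chr8:115682942-115707794 (minus). All 8 are protein-coding. Genes on the opposite strand overlap Csf1r (Hmgxb3), Il34 (Gm15894 and Gm15895), Flt3 (Gm26597) and Maf (Gm15655), and the sources used here do not state whether counting used strand.

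The 3-month library held 3135 barcodes with a median of 7472 UMIs (unique molecular identifiers, each 1 captured transcript), and the 15-month library 4939 with a median of 6949. After hashtag and quality filters 5670 cells were left: 468, 449 and 920 in the 3-month pools 1 to 3, and 739, 2205 and 889 in the 15-month pools. Pairs of cells from the same pool carry 1 hashtag and cannot be seen by it. From the doublets that were seen, they were estimated at 9.84% of the 3-month and 5.56% of the 15-month singlets. Between the libraries, 3 barcodes were shared. Cells were classed by clusters and marker genes, with the 8 genes kept out of both steps. The largest class was macrophage-like (1464 cells), followed by neutrophil-like (586), classical monocyte-like (552), non-classical monocyte-like (538) and conventional dendritic cell type 2-like (cDC2-like, 524). Another 517 cells formed cluster 5, led by Arg1, Spp1 and Ccl24, whose monocyte and macrophage marker scores were too close for a name. Lymphoid classes were 387 NK cell-like, 242 B cell-like and 96 T cell-like cells. Although the sort was labelled CD45+, 196 cells were named stroma-like. The 96 of them in cluster 102 also carried many macrophage transcripts, as given below, and whether these come from doublets was not tested. Other classes named for non-immune cells were 58 endothelial-like, 31 granulosa-like, 28 smooth muscle or pericyte-like, 24 steroidogenic-like and 18 epithelial-like cells.

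Levels are given as CPM, the UMIs of a gene per 1000000 gene UMIs of the class in a pool. Means ± SD run over pools with at least 10 cells of the class. A level of all cells of a class summed has an exact Poisson 95% interval, which covers counting error only. The clusters came from the same cells, so levels between classes are a description without a test, and levels are not compared between genes.

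Csf1, the ligand that is also made by many stromal tissues, was found mainly in granulocytes among these sorted cells. The CD45+CD11b+ sort affects how many cells of each class are present, so shares of UMIs do not describe the whole ovary. Of the 1461 Csf1 UMIs, 910 (62.3%) lay in neutrophil-like cells, which gave only 2.64% of all UMIs, and 269 (18.4%) lay in the 24 mast cell or basophil-like cells. In neutrophil-like cells the level was 585, 605 and 199 CPM in the 3-month pools and 255, 948 and 454 CPM in the 15-month pools, a mean of 508 ± 273 CPM (SD, n = 6). Pools of one age thus differed by several fold, and the ages overlapped. When each cell was thinned to 1000 UMIs, 31.7% of neutrophil-like cells had a Csf1 UMI (45.2% unthinned, median 2155 UMIs). The same share was 0% of 387 NK cell-like cells, which allows up to 0.775% of cells with a UMI and sets no limit on cells that express the gene (0.775% unthinned, median 3523 UMIs), and 0% of 168 cDC1-like cells, type 1 conventional dendritic cells, before and after thinning (median 14346 UMIs).

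The mast cell or basophil-like cells were led by Mcpt8, a basophil protease gene, with Il6 and Il4. Their Csf1 level was 2644 CPM over all 24 cells (95% interval 2337 to 2980), and it was 2854 CPM in 15-month pool 2, the only pool with at least 10 of them. That pool held 17 of the cells and 15-month pool 1 held 6, with 1 more at 3 months. After thinning, 79.2% of these cells had a Csf1 UMI. Neutrophil markers summed to 4128 CPM in them (6 of 9 markers seen) against 123670 CPM in neutrophil-like cells. A group of 10 cells at a finer cluster resolution, led by the mast cell gene Tpsb2, had no Csf1 UMI, which at its depth allows up to 110 CPM.

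All other classes were far lower. Csf1 was 18.3 ± 13.6 CPM in stroma-like cells (n = 6 pools, 4.23 to 38.2), and 14 UMIs in smooth muscle or pericyte-like cells gave 30.9 CPM (95% interval 16.9 to 51.9). In cluster 5 it was 10.9 ± 8.76 CPM, and in macrophage-like cells 2.51 ± 1.70 CPM (both n = 6). These ranges overlapped between stroma-like cells and cluster 5, and the range of neutrophil-like cells lay above all of them. The 27 barcodes rich in haemoglobin transcripts, 26 of them at 3 months, held 16 of the 171 Csf1 UMIs of that age.

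**Figure D1:**
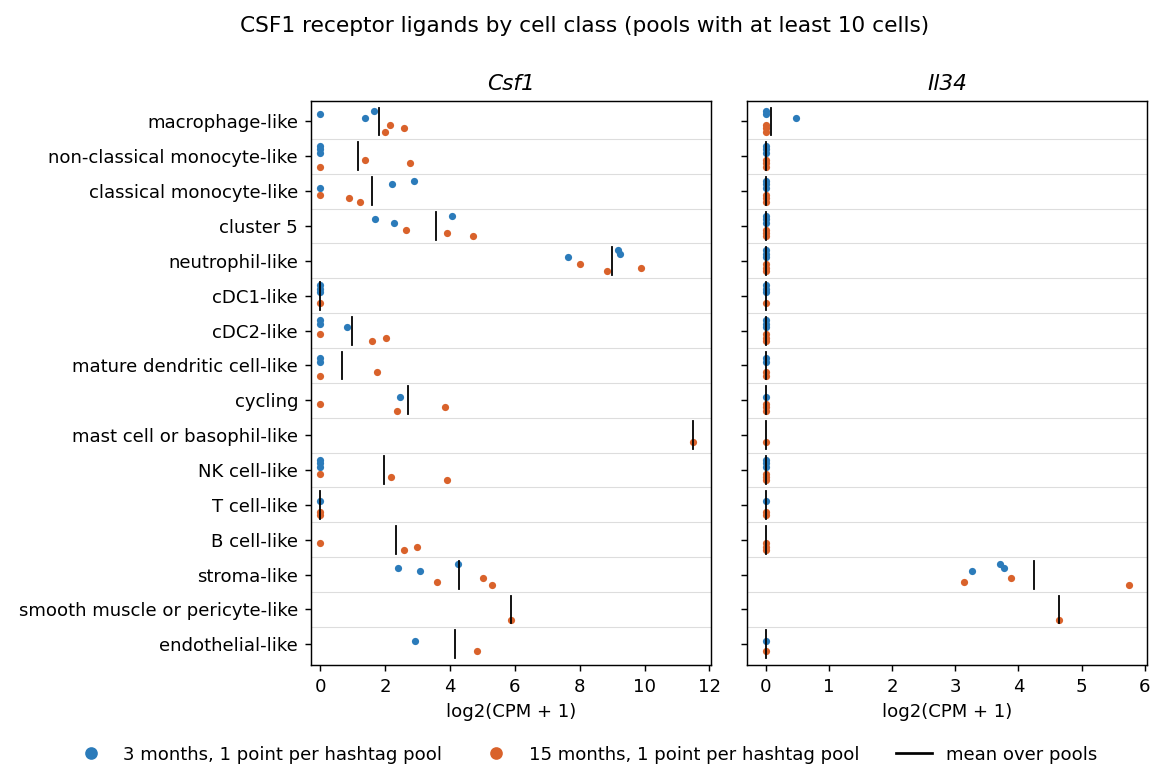
Levels of Csf1 and Il34 by cell class on a log2(CPM + 1) axis, 1 point per hashtag pool with at least 10 cells of the class (blue 3 months, orange 15 months) and a black line at the mean over pools. Csf1 stands highest in mast cell or basophil-like cells (1 pool) and neutrophil-like cells (6 pools), and Il34 is at 0 in nearly all immune pools.

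Within the neutrophil-like cells, Csf1 and the G-CSF receptor gene ran in opposite directions. At the finer resolution they formed 2 clusters. One of 454 cells was led by Retnlg and Cxcr2, genes of mature circulating neutrophils, and one of 132 cells by Il1f9 and Acod1, genes of activated neutrophils. Summed Csf1 was 431 CPM in the first (95% interval 391 to 473) and 1449 CPM in the second (1322 to 1586). Csf3r was 1512 CPM in the first (1437 to 1589) and 613 CPM in the second (531 to 704), while Csf2rb was 308 CPM (275 to 344) and 250.2 CPM (199 to 311). The second cluster was unevenly spread: 107 of its 132 cells came from 15-month pool 2, the pool with the highest Csf1 in neutrophil-like cells, against 9, 2 and 0 cells in the 3-month pools and 5 and 9 in the other 15-month pools. The other 4 pools with such cells held fewer than 10 each. In 3-month pool 1, 21 Csf1 UMIs in 9 cells gave 1069 CPM, against 496 CPM in the Retnlg and Cxcr2 cluster of that pool. In 15-month pools 1 and 3, 10 and 18 UMIs gave 867 and 738 CPM, against 217 and 421 CPM. In 3-month pool 2 the order was the opposite, with 257 CPM from 1 UMI in 2 cells against 670.1 CPM. The difference in the summed levels therefore rests mostly on 1 pool, where it was 1584 against 538 CPM.

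Neutrophil-like cells were also divided by whether they held an Acod1 UMI. The 393 neutrophil-like cells with an Acod1 UMI had 821 CPM of Csf1, and the 193 without one had 350.1 CPM. At 3 months the values were 568 CPM (63 cells) and 324 CPM (49 cells), and at 15 months 862 CPM (330 cells) and 357 CPM (144 cells). After thinning, 37.7% of cells with and 19.7% of cells without an Acod1 UMI had a Csf1 UMI. These shares were close at 3 months (27.0% and 22.4%) and further apart at 15 months (39.7% and 18.8%). All values of this split join the pools of an age. Csf3r was 1194 CPM with and 1521 CPM without an Acod1 UMI. Acod1 was chosen for this split after the clusters had been seen, and it leads one of them, so the split is not independent of them.

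**Figure D2:**
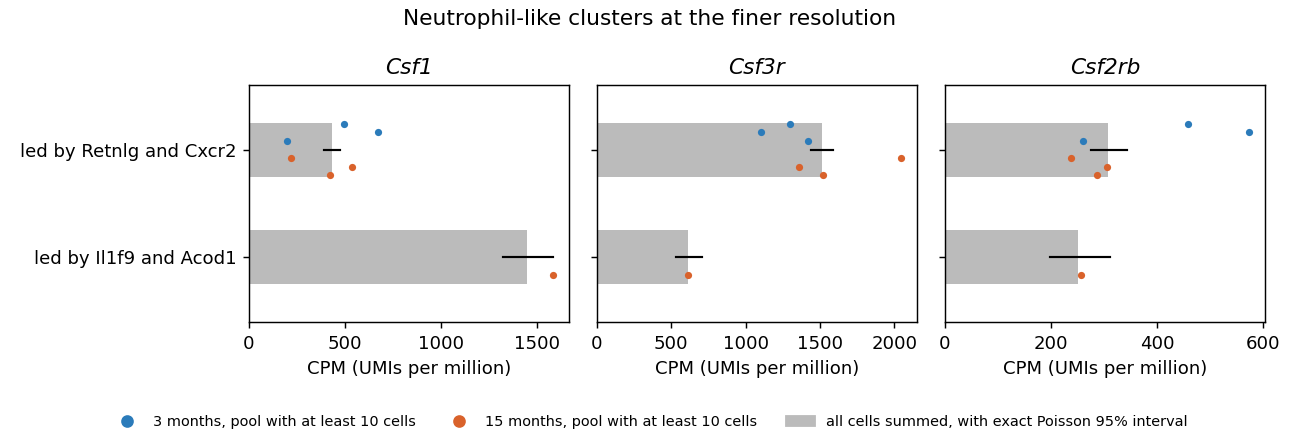
Csf1, Csf3r and Csf2rb in the 2 neutrophil-like clusters of the finer resolution, in CPM. Grey bars are all cells summed with exact Poisson 95% intervals as black lines, and points are pools with at least 10 cells (blue 3 months, orange 15 months). The Il1f9 and Acod1 cluster has 1 such pool, at 1584 CPM of Csf1, above all 6 pools of the other cluster.

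Il34, the alternative ligand, was restricted to cells outside the immune lineage apart from 1 UMI. Of 79 UMIs, 52 (65.8%) were in stroma-like cells, 13 in smooth muscle or pericyte-like, 7 in steroidogenic-like, 4 in epithelial-like, 1 in endothelial-like and 1 in granulosa-like cells. The remaining UMI was in a macrophage-like cell, a class that gave 28.5% of all UMIs. Stroma-like cells held 12, 12.7 and 8.64 CPM in the 3-month pools and 13.8, 7.77 and 52.8 CPM in the 15-month pools, a mean of 18.0 ± 17.2 CPM (n = 6). Without 15-month pool 3, the highest, the mean was 11 CPM. Smooth muscle or pericyte-like cells had 28.7 CPM summed (95% interval 15.3 to 49.1) and steroidogenic-like cells, the hormone-making cells, 17.0 CPM (6.83 to 35.0). In neutrophil-like cells a count of 0 allows up to 2.24 CPM, and in cluster 5 up to 0.438 CPM. Unthinned, 14.8% of stroma-like cells had an Il34 UMI, and 1.53% after thinning, so single cells are too shallow for a share to be read.

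Stroma-like cells were 2 clusters that differed in the receptor of these ligands. Cluster 101 (100 cells) had 31.5 CPM of Il34 (95% interval 21.4 to 44.7) and 14.2 CPM of Csf1r (7.77 to 23.8). Cluster 102 (96 cells) had 10.7 CPM of Il34 (6.61 to 16.3) and 324 CPM of Csf1r (299.6 to 350.5). The Il34 gap rests on 15-month pool 3, which held 25 of the 31 Il34 UMIs of cluster 101. Without that pool the summed Il34 was 8.25 CPM in cluster 101 (6 UMIs) and 10.1 CPM in cluster 102 (17 UMIs), the opposite order, an alternative chosen after seeing the data. Macrophage markers summed to 3153 CPM in cluster 101 and 24386 CPM in cluster 102, against 42347 CPM in macrophage-like cells, with 10 of 10 markers seen in each. Cluster 102 had a median of 17275 UMIs a cell and cluster 101 a median of 7623. The 7 stroma markers summed to 6992 CPM in cluster 101 and 2573 CPM in cluster 102. Whether the macrophage transcripts of cluster 102 come from doublets was not tested.

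The other ligands of these receptor families were scarce or lay elsewhere. Csf2, which codes for GM-CSF, had 29 UMIs, 25 of them in NK cell-like, 3 in T cell-like and 1 in macrophage-like cells. Csf3, which codes for G-CSF, had 24 UMIs, of which macrophage-like cells had 8, classical monocyte-like and neutrophil-like cells 6 each, and cluster 5 and granulosa-like cells 2 each. Flt3l, the ligand of FLT3, was at 22.2 CPM summed in NK cell-like, 22.0 CPM in T cell-like and 15.2 CPM in B cell-like cells. Kitl, the ligand of the related receptor KIT, was at 332 CPM in endothelial-like, 179 CPM in smooth muscle or pericyte-like and 155 CPM in granulosa-like cells.

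Csf1r followed the monocyte and macrophage lineage. Non-classical monocyte-like cells, the patrolling monocytes, had 569.7, 659.7 and 625 CPM at 3 months and 873, 769 and 770.2 CPM at 15 months, a mean of 711 ± 112 CPM (n = 6). Macrophage-like cells had 631, 671 and 579 CPM at 3 months and 656, 606 and 465 CPM at 15 months, a mean of 601 ± 74.7 CPM. Classical monocyte-like cells, the inflammatory monocytes, had 386, 431 and 542 CPM at 3 months and 496, 493 and 524 CPM at 15 months, a mean of 479 ± 59.1 CPM. The pool ranges of each of these neighbours in the order overlapped. Cycling cells followed at 354 ± 65.1 CPM (n = 4 pools), then cluster 5 at 296 ± 57.8 CPM (n = 6), which overlapped the cycling cells but lay below every classical monocyte-like pool.

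Stroma-like cells came next at 190.3 ± 79.8 CPM, with nearly all of it in cluster 102, then cDC2-like cells at 103 ± 49.4 CPM and neutrophil-like cells at 90.6 ± 27.7 CPM (n = 6 each), each overlapping the next. NK cell-like cells at 3.65 ± 3.11 CPM (n = 6) and cDC1-like cells at 2.56 ± 1.87 CPM (n = 4) were near 0. After thinning, 269 of 538 non-classical monocyte-like cells, 42.6% of macrophage-like and 40.0% of classical monocyte-like cells had a Csf1r UMI, against 0% of NK cell-like and 0% of cDC1-like cells. T cell-like cells had 256 ± 133 CPM (n = 3). Beside it, macrophage markers summed to 13502 CPM in T cell-like cells (7868 to 22427 over those pools) and to 419 CPM in NK cell-like cells. The part of macrophage transcripts in the T cell-like value was not tested.

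The macrophage-like class was 4 clusters with different receptor levels. Cluster 7 (326 cells, led by Fcrls, Pf4 and Stab1) had 693 ± 130 CPM of Csf1r and cluster 0 (950 cells, led by Ccl12 and Vcam1) 630.2 ± 68.3 CPM (n = 6 pools each), with overlapping ranges. Cluster 16 (34 cells, led by Saa3 and Prg4) had 335 ± 43.3 CPM and cluster 11 (154 cells, led by Lipg, Fcrl5 and Fcgr4) 223 ± 24.1 CPM (n = 2 pools each). Both lay below every pool of clusters 0 and 7. Of the 154 cells of cluster 11, 126 came from 15-month pool 3, the macrophage-like pool with the lowest Csf1r. In cluster 0 alone that pool had 554 CPM and in cluster 7 511 CPM.

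**Figure D3:**
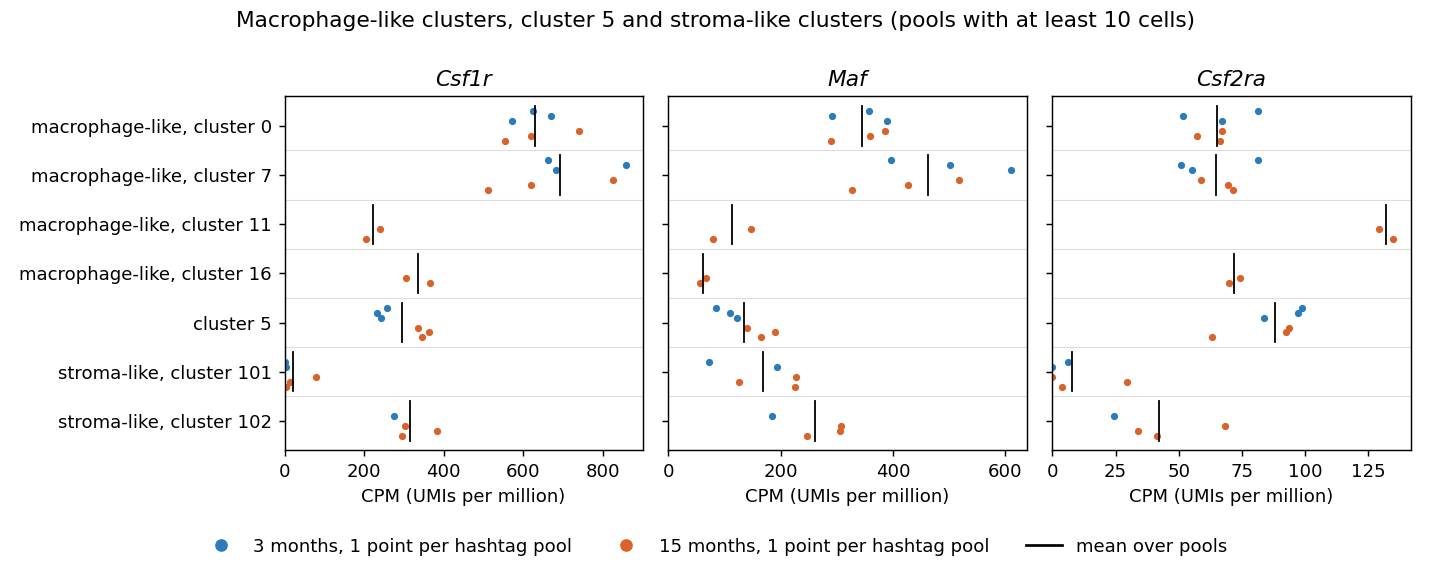
Csf1r, Maf and Csf2ra in CPM in the macrophage-like clusters, cluster 5 and the 2 stroma-like clusters, 1 point per pool with at least 10 cells (blue 3 months, orange 15 months), with the mean as a black line. Clusters 0 and 7 are high for Csf1r and Maf, cluster 11 is highest for Csf2ra at 132 CPM, and the stroma-like clusters differ in Csf1r.

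Csf2ra, the GM-CSF receptor alpha chain, was found in most myeloid classes. It was 121 ± 35.3 CPM in non-classical monocyte-like, 111 ± 15.5 CPM in classical monocyte-like and 111 ± 44.9 CPM in neutrophil-like cells, then 88.1 ± 13.3 CPM in cluster 5, 78.7 ± 12.9 CPM in cDC2-like and 68.8 ± 13.2 CPM in macrophage-like cells (n = 6 pools each). Each neighbour in this order overlapped the next. In cDC1-like cells it was 48.7 ± 9.18 CPM and in mature dendritic cell-like cells 46.5 ± 32.7 CPM (n = 4 each), while mast cell or basophil-like cells held 1 UMI. Cluster 11 of the macrophage-like cells had 132 ± 4.04 CPM (n = 2) against 65.1 ± 10.1 CPM in cluster 0 and 64.6 ± 11.5 CPM in cluster 7 (n = 6). NK cell-like cells were at 4.15 ± 5.50 CPM.

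Csf2rb, the shared beta chain, was more uneven. The 24 mast cell or basophil-like cells held 103 UMIs, 1012 CPM (95% interval 826 to 1228). They held 1 UMI of Csf2ra, 9.83 CPM with a 95% interval of 0.249 to 54.8, too few to tell a low level from none. Neutrophil-like cells had 427, 484 and 260.0 CPM at 3 months and 239.6, 286 and 279 CPM at 15 months, a mean of 329 ± 101 CPM (n = 6), and the ages overlapped. Mature dendritic cell-like cells, marked by Ccr7 and Fscn1, had 241 ± 52.4 CPM (n = 4). Classical monocyte-like cells had 146 ± 54.6 CPM, cluster 5 116 ± 33.5 CPM, non-classical monocyte-like cells 110.4 ± 29.9 CPM, cDC2-like cells 88.5 ± 26.2 CPM and macrophage-like cells 65.2 ± 11.5 CPM (n = 6 each).

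B cell-like cells had 66.5 ± 7.81 CPM of Csf2rb (n = 3), whereas NK cell-like cells had no UMI at all, which allows up to 2.02 CPM. Csf2rb2, a near copy that in mice serves IL-3, was at 216 CPM summed in mast cell or basophil-like, 60.8 CPM in mature dendritic cell-like and 43.7 CPM in cluster 5 cells. Of the 60-base windows of the Csf2rb transcript, 14.6% also occur in Csf2rb2, but none of those in its last 500 bases, the end a 3' library reads. Reads of the copies that fall elsewhere could be split between them.

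Csf3r, the G-CSF receptor gene, was a neutrophil gene in these cells. Neutrophil-like cells had 1233, 1009 and 1422 CPM at 3 months and 1973, 1068 and 1398 CPM at 15 months, a mean of 1350.4 ± 348 CPM (n = 6), above every pool of every other class with 10 cells. They held 58.2% of the 2971 Csf3r UMIs. Non-classical and classical monocyte-like cells followed at 63.6 ± 11.7 and 61.1 ± 17.2 CPM, cluster 5 at 34.2 ± 11.6 CPM and macrophage-like cells at 29.4 ± 11.6 CPM, while cDC2-like cells had 4.63 ± 3.39 CPM (n = 6 each). After thinning, 67.7% of neutrophil-like cells had a Csf3r UMI, against 0% of NK cell-like, cDC1-like and B cell-like cells. Neutrophil markers summed to 94.2 CPM in macrophage-like, 73.8 CPM in classical monocyte-like and 285 CPM in non-classical monocyte-like cells, with 9, 9 and 7 of 9 markers seen.

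Flt3 was highest in the 3 dendritic classes. cDC1-like cells had 111 ± 15.8 CPM (n = 4 pools, 101 to 135), mature dendritic cell-like cells 70.2 ± 35.1 CPM (n = 4, 21.3 to 98.3) and cDC2-like cells 56.1 ± 20.7 CPM (n = 6, 30.5 to 80.4). The range of cDC1-like cells lay above both others, which overlapped. Together these classes held 35.8%, 9.31% and 44.0% of the 784 Flt3 UMIs. The 27 barcodes rich in haemoglobin transcripts had 24.7 CPM summed (10 UMIs, 95% interval 11.9 to 45.5), and classical monocyte-like cells had 8.20 ± 4.79 CPM (n = 6). Non-classical monocyte-like and NK cell-like cells had no Flt3 UMI, which allows up to 1.25 and 2.02 CPM.

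**Figure D4:**
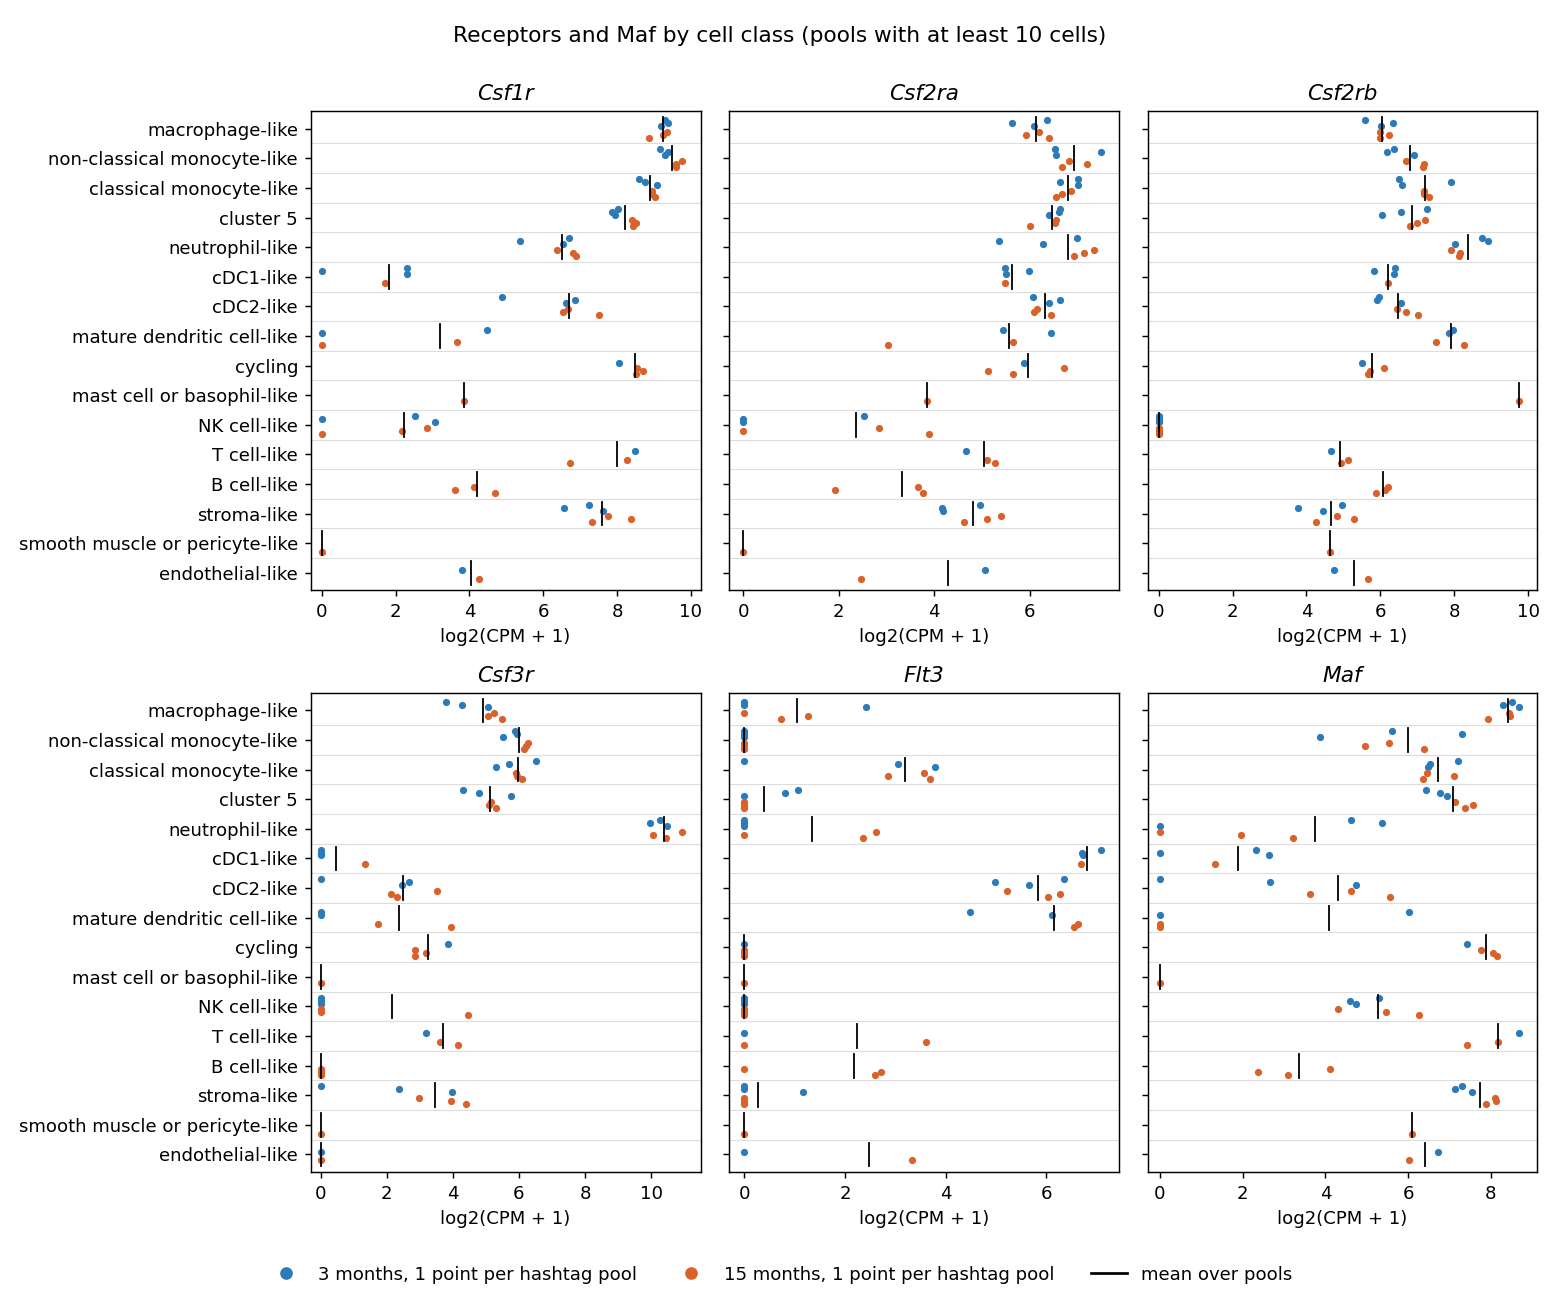
Levels of Csf1r, Csf2ra, Csf2rb, Csf3r, Flt3 and Maf by cell class on log2(CPM + 1) axes, 1 point per pool with at least 10 cells of the class (blue 3 months, orange 15 months) and a black line at the mean. Csf1r is high in monocyte and macrophage classes, Csf3r in neutrophil-like cells, Flt3 in the 3 dendritic classes and Maf in macrophage-like cells.

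Maf was highest in macrophage-like cells, with 364, 314 and 412 CPM at 3 months and 344, 355 and 244 CPM at 15 months, a mean of 339 ± 56.3 CPM (n = 6). They held 58.8% of its 8294 UMIs. Cluster 7 had 463 ± 101 CPM and cluster 0 345 ± 44.6 CPM (n = 6), above cluster 11 at 113 ± 48.4 and cluster 16 at 61.3 ± 7.86 CPM (n = 2). Stroma-like cells had 212 ± 60.2 CPM (n = 6). Here both clusters carried the gene, with 168 ± 67.5 CPM in cluster 101 (n = 5) and 261 ± 58.8 CPM in cluster 102 (n = 4), unlike Csf1r. T cell-like cells had 290.1 ± 120.4 CPM (n = 3), cluster 5 135 ± 37.8 CPM, classical monocyte-like cells 105 ± 28.9 CPM and non-classical monocyte-like cells 62.6 ± 51.1 CPM (n = 6). NK cell-like cells were at 37.6 ± 21.2 CPM, cDC2-like cells at 18.7 ± 16.8 CPM and neutrophil-like cells at 12.5 ± 16.3 CPM. Over all 6 pools, mean Csf1r was highest in non-classical monocyte-like cells, whose Maf range lay below the macrophage-like range. The Csf1r pool ranges of these 2 classes overlapped at 3 months and did not overlap at 15 months. Mean Csf1r in non-classical monocyte-like against macrophage-like cells was 618 against 627 CPM at 3 months and 804 against 576 CPM at 15 months. The age differences of the 2 classes differed by 0.64 ± 0.36 on the log2 scale (SE). That did not pass the adjusted threshold (edgeR interaction, unadjusted p = 0.078).

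Over the 14 classes with at least 50 cells, genes were ranked by Pearson correlation of log2(CPM + 1) with each of the 8, as a description of classes that share libraries and depth. Csf1r was closest to Clec4a1 (r = 0.97), Adgre1, the F4/80 gene (0.95), and Clec4a3 (0.95). Maf was closest to Selenop (0.96), Wwp1 (0.94) and Itga9 (0.93). For Csf2ra these were Gpr35 (0.97), Card9 (0.96) and Spi1 (0.94), and for Csf2rb Spi1 (0.91), Rbm47 (0.90) and Tctex1d2 (0.87). Spi1 codes for the myeloid transcription factor PU.1. Csf3r was closest to Msrb1 (0.94), Rnf149 (0.94) and Trem1 (0.93), and Flt3 to Htr7 (0.90), Dpp4 (0.88) and St8sia1 (0.87). Csf1 was closest to Blcap (0.93), Map1lc3b (0.90) and Slc27a4 (0.90). For Il34 the values of Ntrk2, Lgi2 and Col11a1 (1.00, 1.00 and 0.99) rest on the stroma-like class alone being high. Between the receptor chains Csf2ra and Csf2rb r was 0.82. Csf1 and its receptor Csf1r gave 0.22 and Il34 and Csf1r 0.10.

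Because Spi1 was among the 3 closest genes of both GM-CSF receptor chains, promoters were searched for the core of the PU.1 motif, GAGGAAG, on both strands. RefSeq promoters (GRCm38, 250 bases before to 50 after the start) were searched for Csf1, Csf2ra, Csf3r and Flt3, 4 of the 8 genes. The promoter of Csf1r was left out of the search, and none was at hand for Csf2rb. Of 32851 such promoters, 13.6% hold the motif. Csf2ra has 2 overlapping matches, Csf3r has 1, and Csf1 and Flt3 have none. The promoters below are those of these 4 genes that rank non-classical monocyte-like or neutrophil-like cells highest among classes of 6 pools, read 5′ to 3′ along the gene's strand, with the motif in capitals. They cover chr19:61228369-61228668 (minus), chr4:126024409-126024708 (plus) and chr3:107760420-107760719 (minus).
Csf2ra: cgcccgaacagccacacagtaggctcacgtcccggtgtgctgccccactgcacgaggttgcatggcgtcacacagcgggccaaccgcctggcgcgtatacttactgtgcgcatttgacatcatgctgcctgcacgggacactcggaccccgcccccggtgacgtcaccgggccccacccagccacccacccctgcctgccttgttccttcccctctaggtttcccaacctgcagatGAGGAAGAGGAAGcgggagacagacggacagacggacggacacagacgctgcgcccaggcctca
Csf3r: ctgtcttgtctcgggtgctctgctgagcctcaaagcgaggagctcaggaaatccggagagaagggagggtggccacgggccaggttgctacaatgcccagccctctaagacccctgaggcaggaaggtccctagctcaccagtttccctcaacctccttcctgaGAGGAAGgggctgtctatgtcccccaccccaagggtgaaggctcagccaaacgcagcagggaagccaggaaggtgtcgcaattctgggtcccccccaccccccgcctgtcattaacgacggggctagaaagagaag
Csf1: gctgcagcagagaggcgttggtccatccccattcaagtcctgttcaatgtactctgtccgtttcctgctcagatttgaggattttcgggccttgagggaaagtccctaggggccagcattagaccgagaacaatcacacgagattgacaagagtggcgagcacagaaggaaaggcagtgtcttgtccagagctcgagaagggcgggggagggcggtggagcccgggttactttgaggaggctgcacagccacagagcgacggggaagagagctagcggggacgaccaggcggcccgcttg
A match is a string of letters in the window, not a measured binding site.

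The comparison of ages asked whether any of the 8 genes differed between 15 and 3 months within a class. UMIs were summed per pool and class, and 42 pairs of gene and class could be tested over 3 pools of each age, with 7 of the genes in at least 1 class. None passed an adjusted p of 0.05 in the quasi-likelihood test of edgeR, and 5 had an unadjusted p under 0.05. Over all genes in these fits and that of NK cell-like cells, 11.7% had such a p, so the 5 of 42 did not stand apart. With DESeq2, 0 passed and 6 had an unadjusted p under 0.05. Among all genes DESeq2 gave such a p to 1549 of 11882 in all kept cells and 433 of 6560 in cluster 5. It did so for 207 of 3930 in non-classical monocyte-like and 378 of 5666 in stroma-like cells, and the 6 pairs lay in these 4 fits. In all kept cells together 0 of 7 genes passed, where 0.0589% of all genes tested were called. Across the classes, 0 of 5 passed in macrophage-like (0.0822% of all genes called), classical monocyte-like (0.155%), non-classical monocyte-like (0.458%), cDC2-like (0.144%) and neutrophil-like cells (0.248%). In cluster 5 the count was 0 of 6 (0.061%) and in stroma-like cells 0 of 4 (0.194%). In NK cell-like cells no member was abundant enough to be tested (1.13% of all genes called). With so few genes called at all, the counts among the 8 do not stand apart from the background. In the main fits, Il34 was too sparse to be tested in any class. Some alternatives, such as the hashtag ratio rule, tested all 8 genes in all kept cells and called 0 of them.

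In macrophage-like cells, the class named in the series title, Csf1r was 627 CPM on average at 3 months and 576 CPM at 15 months, a log2 difference of -0.21 ± 0.15 (SE, edgeR 95% interval -0.53 to 0.12, adjusted p = 0.72). A fall by more than 0.53 or a rise by more than 0.12 on the log2 scale thus lay outside the interval. Cluster 11, the macrophage-like cluster with the lowest Csf1r, had 6 cells at 3 months and 148 at 15 months. Within cluster 0, Csf1r was 622 ± 48.9 CPM at 3 months and 638 ± 95.2 CPM at 15 months, and within cluster 7 it was 734 ± 107 and 652 ± 159 CPM (n = 3 each). Both pairs overlapped, and neither was tested. Maf differed by -0.30 ± 0.18 (interval -0.70 to 0.10, edgeR adjusted p = 0.65), with 345 ± 49.9 CPM at 3 months and 344 ± 49.8 CPM at 15 months within cluster 0, and 502 ± 107 and 423 ± 95.6 CPM within cluster 7 (n = 3 each, overlapping and not tested). Csf2ra differed by 0.06 ± 0.21 (-0.41 to 0.53) and Csf2rb by -0.02 ± 0.17 (-0.41 to 0.36). Csf3r had 12.8, 18.4 and 32.4 CPM at 3 months and 36.7, 32.7 and 43.5 CPM at 15 months. The ages did not overlap, though the nearest pools differed little, and the difference was 0.53 ± 0.27 (-0.06 to 1.12, edgeR adjusted p = 0.58). Neutrophil markers in macrophage-like cells summed to 28.2 CPM at 3 months (6.42 to 77.5 over pools, 7 of 9 seen) and 118 CPM at 15 months (81.1 to 130.3, 9 of 9 seen), and their part in the Csf3r values was not tested.

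The pairs with an edgeR unadjusted p under 0.05 fell in other classes and in all kept cells together. In all kept cells, Csf1r ran from 252.9 to 292.9 CPM over the 3-month pools and from 334.6 to 380.4 CPM over the 15-month pools. Its log2 difference there ran from 0.25 to 0.36 over the alternatives and never passed the adjusted threshold. The part of the mix of classes in it was not tested. In cluster 5, Maf was 85.5, 109 and 122 CPM at 3 months and 139.8, 189 and 165 CPM at 15 months. The difference was 0.66 ± 0.20 (95% interval 0.22 to 1.10, edgeR adjusted p = 0.32). Csf1r in the same cells was 258, 232 and 244 CPM at 3 months and 336, 363 and 345 CPM at 15 months (0.50 ± 0.17, interval 0.13 to 0.88, edgeR adjusted p = 0.35). Neither gene's pools overlapped between ages. Macrophage markers in cluster 5 summed to 18191 CPM at 3 months (6748 to 51517 over pools) and 31205 CPM at 15 months (25356 to 41944), with 10 of 10 seen at both ages, and their part in the difference was not tested.

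In non-classical monocyte-like cells the Csf1r levels given above did not overlap between ages, a difference of 0.37 ± 0.14 (95% interval 0.08 to 0.66, edgeR adjusted p = 0.33). Macrophage markers summed to 5087 CPM there at 3 months (3332 to 6153 over pools, 9 of 10 seen) and 7086 CPM at 15 months (4669 to 12045, 10 of 10 seen), and their part was not tested. In stroma-like cells, Maf was 156, 139.7 and 186 CPM at 3 months and 276, 279 and 237 CPM at 15 months (0.73 ± 0.21, interval 0.27 to 1.2, edgeR adjusted p = 0.21). Macrophage markers summed to 12685 CPM in 3-month and 20517 CPM in 15-month stroma-like cells, and cluster 102 made up 32 of 76 and 64 of 120 of them. In cluster 101 alone the Maf pools overlapped: 117, 72.3 and 193 CPM at 3 months (the first from 7 cells) and 227, 125 and 225 CPM at 15 months. None of these differences passed the adjusted threshold in the main test or in any alternative.

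For the ligand Csf1 the intervals were wide. In neutrophil-like cells the difference was 0.36 ± 0.49 (95% interval -0.71 to 1.42, edgeR adjusted p = 1.00), and it was -0.33 without 15-month pool 2. In all kept cells Csf1 was 32.3, 7.57 and 5.47 CPM at 3 months and 22.6, 45.0 and 21.7 CPM at 15 months (1.04 ± 0.64, interval -0.45 to 2.53, edgeR adjusted p = 0.44), and 2.17 without 3-month pool 1 or 0.54 without 15-month pool 2. Neutrophil-like cells made up 13.7%, 2.90% and 3.80% of the 3-month pools and 13.1%, 13% and 10.2% of the 15-month pools. Csf3r in all kept cells had 69.3, 24.2 and 29.8 CPM at 3 months and 100.8, 58.2 and 74.3 CPM at 15 months (0.84 ± 0.38, interval -0.05 to 1.72, edgeR adjusted p = 0.32). At 3 months pool 1 was highest for both genes, but at 15 months pool 2 was highest for Csf1 and lowest for Csf3r. Within neutrophil-like cells the summed Csf3r level was 1264 CPM at 3 months (112 of 1837 cells) and 1297 CPM at 15 months (474 of 3833 cells). Flt3 in all kept cells differed by -0.67 ± 0.47 (interval -1.75 to 0.41, edgeR adjusted p = 0.49), and by -1.37 without 15-month pool 2, while in cDC2-like cells it differed by 0.29 ± 0.30 (-0.37 to 0.94, edgeR adjusted p = 0.80).

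**Figure D5:**
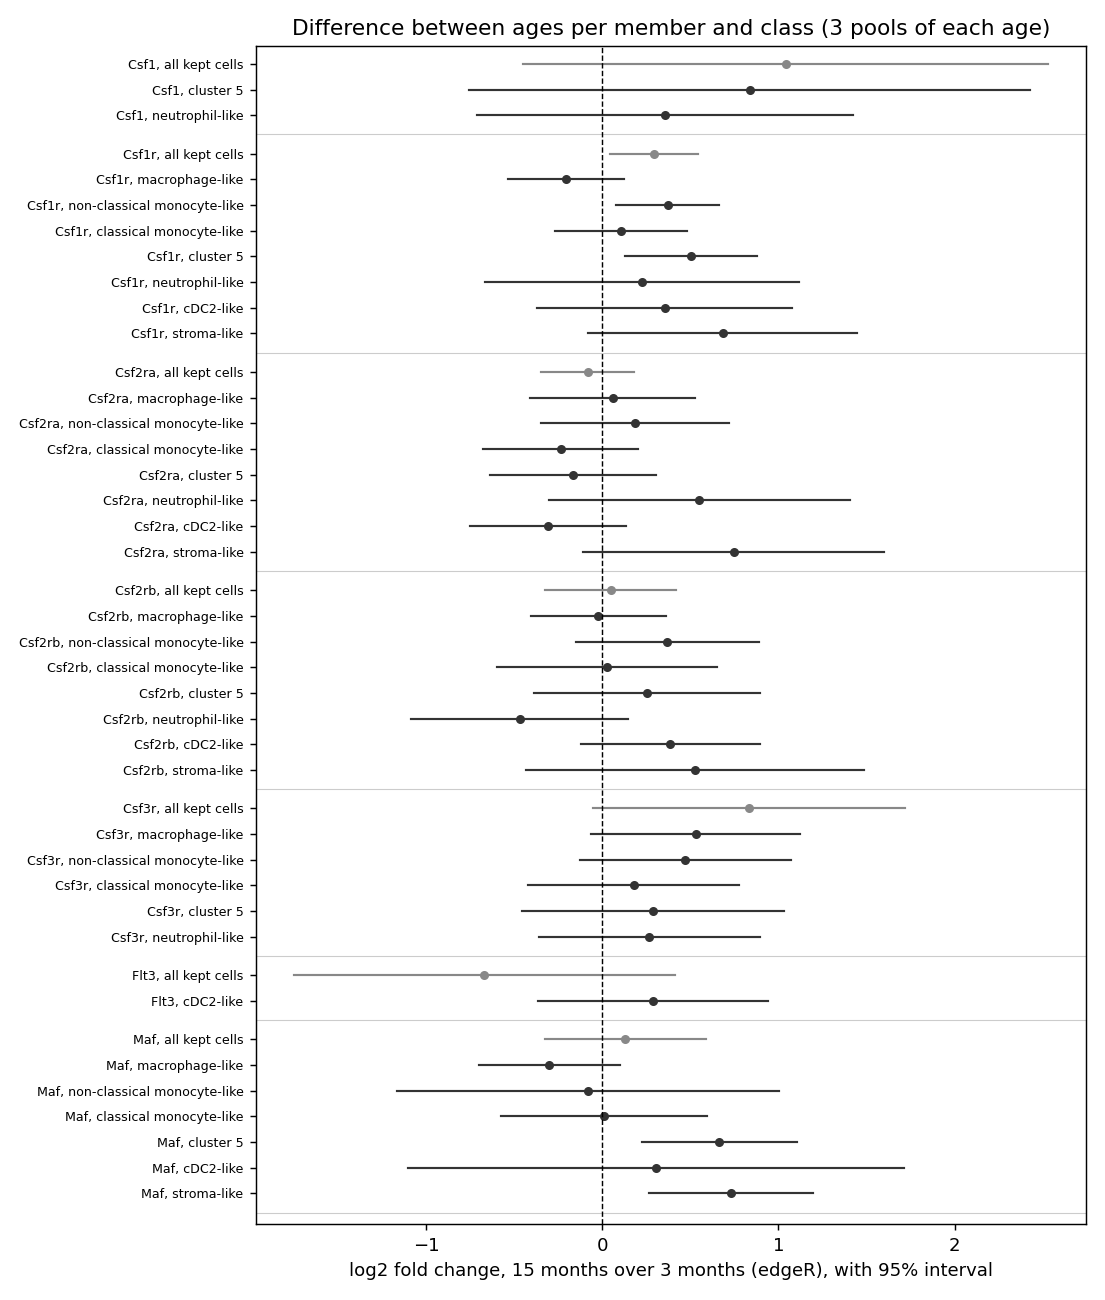
Log2 fold change of 15 months over 3 months (horizontal axis) for each of the 42 tested pairs of gene and class, from edgeR on sums of 3 pools of each age. Points are estimates and lines 95% intervals, with sums over all kept cells in grey. No pair passed the adjusted threshold of 0.05.

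Whether the age difference of a gene was larger in one class than in macrophage-like cells was tested as an interaction in edgeR, with the pool as a block. Only genes that passed the count filter both in the class and in macrophage-like cells were counted. Of 27 such tests in 6 classes, 0 passed, 3 had an unadjusted p under 0.05, and the lowest adjusted p was 0.49. The share of all genes with an unadjusted p under 0.05 was not counted for the interaction. No member was abundant enough in NK cell-like cells. The share of all genes called was 0% in classical monocyte-like cells, 0.0118% in cDC2-like cells, 0.0237% in non-classical monocyte-like cells, 0.0355% in cluster 5 and in stroma-like cells, and 0.0592% in neutrophil-like cells. For Csf1r in stroma-like cells the difference of differences was 0.91 ± 0.38 on the log2 scale (SE, edgeR adjusted p = 0.53). Nearly all stroma-like Csf1r lay in cluster 102, which made up 32 of 76 stroma-like cells at 3 months and 64 of 120 at 15 months, and its part in this value was not tested.

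Genes around these receptors were followed as 4 lists: 7 other ligands, 8 other receptors and co-receptors, 19 signalling genes and 12 transcription factors. Of 246 tests of a list gene in a class, 51 (20.7%) had an unadjusted p under 0.05, beside 11.7% of all genes over the same fits. By class, the share ran from 0% in neutrophil-like cells (3.97% of all genes) to 38.9% in NK cell-like cells (14.15%). In neutrophil-like cells and cluster 5 (9.38% against 11.5%) it lay below that of all genes, and in every other fit above it. The fits share cells, since all kept cells hold those of every class. In edgeR, 2 of the 246 tests passed the adjusted threshold. Both calls were in NK cell-like cells, where 1.13% of all genes were called. Stat3, which carries signals of several cytokine receptors, rose by 0.92 ± 0.21 on the log2 scale (adjusted p = 0.032), 1 of 11 signalling genes tested there. Cebpb, a transcription factor of myeloid cells, fell by 1.01 ± 0.22 (adjusted p = 0.020), 1 of 6 transcription factors tested. Both come from the main fit and were not followed over the alternatives, where 9 to 58 genes were called in NK cell-like cells. The part of myeloid transcripts in these 2 values was not tested. In macrophage-like cells 0 of 18 signalling genes and 0 of 12 transcription factors passed, with median differences of 0.07 and 0.08 beside 0.00 over all genes. In stroma-like cells the medians were 0.56 for 9 signalling genes and 0.62 for 11 transcription factors, beside -0.00 over all genes, and none passed. Macrophage markers in stroma-like cells summed to 12685 CPM at 3 months and 20517 CPM at 15 months, with cluster 102 at 32 of 76 and 64 of 120 cells, and their part in these medians was not tested.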

How the data were processed

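Raw UMI counts, deposited by the authors as matrices without normalization, were used for 1 gene and 1 hashtag library per age. Cell Ranger 4.0.0 made the matrices per the file headers, whereas version 7.0.0 stands in the submitters' processing notes, beside FastQC 0.11.4 and the build mm10. Hashtags were called per library with HTODemux (Seurat 5.3.0, quantile 0.99). Singlets passed with 500 genes or more, 1000 gene UMIs or more and mitochondrial UMIs of 10% or less, which left 1837 cells at 3 months and 3833 at 15 months. Cells were clustered in scanpy 1.11.5 (Python 3.11.15, leidenalg 0.10.2: scaling to 10000, 2000 variable genes without the 8 genes, 30 components, 15 neighbours, Leiden resolution 0.6 or, finer, 1.0). Clusters were named where the best marker set had at least 3 markers in 20% of cells, a score of 0.5 and a lead of 0.25. Barcodes above 1% haemoglobin UMIs were set apart, a limit chosen after seeing the data, and non-immune clusters were clustered again.

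Pool sums of classes with at least 10 cells in all 6 pools were tested with edgeR 4.0.16 (R 4.3.3; filterByExpr, TMM, Benjamini-Hochberg over all genes tested in the class). Standard errors were computed from the F statistic and the coefficient before the prior count was added. Intervals used these standard errors around the printed log2 difference, which includes the prior count. The script was tested on simulated counts. Alternatives were DESeq2 1.42.0, RLE scaling, no filter on low counts, each pool left out, the pool number as a block, stricter cells (1000 genes, 2000 UMIs, 5% mitochondrial), a hashtag ratio rule, the finer resolution, and the 8 genes among the variable genes. A count of 0 was bounded by 3 counts over all cells of the class. Pool sums held 2972982 to 22102248 UMIs. The p-values measure the spread between pools of one library. The 8 genes and all lists were chosen with earlier results of these data known. The 8 genes are named in every class, list genes only where they passed the threshold, and alike genes by the 3 highest correlations among genes of at least 20 CPM in a class.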

Additional observations from a re-analysis of the deposited data

How the results depend on the processing

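No gene among the 8 was called for age in any of the 546 fits of a tested pair under an alternative, and the lowest adjusted p in any of them was 0.117 (edgeR, Csf3r in all kept cells, stricter cells). The direction held in every alternative for 29 of 42 pairs. Over the alternatives, the log2 difference of Csf1r in macrophage-like cells ran from -0.29 to -0.02, of Maf in stroma-like cells from 0.45 to 0.90, and of Csf1 in neutrophil-like cells from -0.33 to 0.76. Counts over all genes moved more: from 7 called in all kept cells to between 0 and 249, 7 in macrophage-like (5 to 283), 31 in NK cell-like (9 to 58), 18 in non-classical monocyte-like (11 to 46), 7 in cDC2-like (4 to 120), 7 in classical monocyte-like (4 to 81), 4 in cluster 5 (3 to 265), 5 in neutrophil-like (3 to 16) and 11 in stroma-like cells (1 to 339). Pool numbers did not pair the samples (correlations of deviations 0.05, -0.00 and 0.20, with 3 of 6 pools closest to their own number). With the pool number as a block, 48 genes were called in macrophage-like, 58 in NK cell-like, 13 in cDC2-like, 15 in classical monocyte-like and 1 in stroma-like cells, and none of the 8 in any class. Over the alternatives, the mean level ran from 419 to 569 CPM for Csf1 in neutrophil-like cells and from 11 to 21.7 CPM for Il34 in stroma-like cells. The stricter cell filter could not be fitted for neutrophil-like and stroma-like cells, nor the ratio rule for NK cell-like cells. No re-clustering gave a tested class under the label cluster 5, which is a number and not a cell type. At the finer resolution, a cluster of 324 cells led by Arg1 was named classical monocyte-like. The classical monocyte-like fit of that alternative tested 6756 genes, against 4528 in the main fit. How far those 324 cells are the cells of cluster 5 was not tested. The levels rest on 79 UMIs for Il34, and on 24 mast cell or basophil-like cells for the highest Csf1 and Csf2rb.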
